A study of Mus musculus with 12 samples.

Results

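The 10 genes of retinoic acid synthesis and signalling were measured in lymph node cells that had been enriched on CD11c beads from nodes draining a tumour. They are the retinaldehyde dehydrogenases Aldh1a1 and Aldh1a2, the retinol metabolism genes Rdh10, Rdh11, Retsat and Dhrs3, and the retinoid receptors Rara, Rarg, Rxra and Rxrb. They were taken by symbol from the deposited count table, which holds all 10 of them among 24499 symbols. The libraries came from 6 samples of APOE-KO mice, which lack apolipoprotein E, and 6 of wildtype mice, whose strain the labels give as C57BL6. Mice of both genotypes carried E0771-cOC tumours, E0771 being a mouse mammary carcinoma line, and nodes were removed on day 9 after the injection, digested with collagenase and DNase and enriched. No tumour-free samples are among the labelled groups. The labels state neither the age of the mice nor how many stand behind a library; the p-values therefore reflect differences among libraries, and part of that spread may be technical. RNA was read from the 3′ end, and a library held 3175135 to 4497466 counts in APOE-KO and 2381477 to 4898360 in wildtype.

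Retinoic acid is the active form of vitamin A. Retinol is first oxidised to retinaldehyde by retinol dehydrogenases such as RDH10, a reversible step that DHRS3 runs backwards, and retinaldehyde is then oxidised irreversibly to retinoic acid by the ALDH1A enzymes. Retinoic acid binds the receptors RAR alpha, beta and gamma, which act on DNA as partners of the retinoid X receptors. Dendritic cells that express Aldh1a2 are best known from the gut and its draining nodes, where their retinoic acid favours gut-homing receptors on lymphocytes and, with TGF-beta, regulatory T cells.

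Windows before start sites of the retinaldehyde dehydrogenases are shown because both enzymes carry out the step that makes retinoic acid. Aldh1a2 was read in every library and Aldh1a1 in 2 libraries. RefSeq promoter sequences (GRCm38.p6) matched 9 of the 10 genes, with 19 start sites in all. The 250 bases before a start were searched on both strands for the octamer ATGCAAAT, the CCAAT box CCAAT and the nuclear receptor hexamer AGGTCA, which do not overlap in the windows shown. The choice of motifs followed a look at the sequences. The octamer was present in 2 of the 19 windows, that of Aldh1a2 (chr9:71215539-71215788, plus strand) and that of an Aldh1a1 start (chr19:20601718-20601967, plus strand). Only windows of these enzymes that hold the octamer are shown. The window of the other Aldh1a1 start (chr19:20492333-20492582, plus strand) held neither the octamer nor a CCAAT box. A CCAAT box was present in 7 of the 19 windows, some of which overlap each other. Among 32851 RefSeq windows of the same length, 1.6% held the octamer and 33.8% a CCAAT box. A GC box (GGGCGG) and a TATA box (TATAAA) were also searched for and occurred in neither window shown. Octamer and CCAAT box are in capitals, 5′ to 3′.
Aldh1a2: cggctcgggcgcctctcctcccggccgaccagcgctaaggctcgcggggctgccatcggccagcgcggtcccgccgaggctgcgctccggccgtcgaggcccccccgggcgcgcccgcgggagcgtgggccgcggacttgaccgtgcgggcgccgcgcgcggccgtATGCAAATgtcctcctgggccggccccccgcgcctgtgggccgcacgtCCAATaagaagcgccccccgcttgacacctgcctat
Aldh1a1: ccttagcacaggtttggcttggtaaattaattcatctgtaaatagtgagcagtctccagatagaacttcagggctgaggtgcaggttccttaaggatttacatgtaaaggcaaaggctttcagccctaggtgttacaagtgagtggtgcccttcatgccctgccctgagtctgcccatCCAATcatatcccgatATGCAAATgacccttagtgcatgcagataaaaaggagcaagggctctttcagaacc
In the Aldh1a2 window the octamer ended 76 bases and the CCAAT box 31 bases before the start. In the Aldh1a1 window shown they ended 48 and 67 bases before it. The composition differed, with 77.6% G and C in the Aldh1a2 window and 46.4% in the Aldh1a1 window shown. The hexamer AGGTCA was found in 3 of the 19 windows, against 14.0% of all windows, and in neither window shown. None of the 19 held 2 hexamers in direct repeat spaced by 1, 2, 4 or 5 bases. A match of letters is a description of the sequence and not a bound site.

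Apoe, the deleted gene, had 2.75 to 10.7 CPM (reads scaled to a common library size and composition) in APOE-KO libraries and 408.7 to 531 CPM in wildtype libraries, so each library followed its label. None of the 10 retinoid genes lies on chromosome 7, which carries Apoe. Itgax, which encodes CD11c, was read at 298 ± 36.9 CPM in APOE-KO and 278 ± 54.0 CPM in wildtype (SD, n = 6 each). Of 14 tested markers of mature migratory dendritic cells 8 rose (Ccr7, Cacnb3, Ccl22, Anxa3, Tmem123, Marcksl1, Socs2 and Eno2) and none fell. Of 10 markers of resident dendritic cells Sirpa rose, and the other 9 had negative log2 fold changes that did not pass. The median over the 10 was -0.15. Of 10 plasmacytoid dendritic cell markers 4 fell (Siglech, Klk1, Cox6a2 and Runx2). Of 13 macrophage markers Cd5l and C1qb rose while Marco, Mrc1, Timd4 and Folr2 fell. The B cell marker Fcer2a, of 9, and the epithelial marker Cdh1, of 5, fell; the epithelial sum was 8.69 to 95.7 CPM in APOE-KO and 83.9 to 143.8 CPM in wildtype. Of the markers tested for T cells (9), fibroblasts and stroma (5), endothelium (8) and adipocytes (1), none passed. Among 10 markers of eosinophils and mast cells none had enough reads to be tested. In such mixtures of cell types a smaller number of cells of a type and less RNA per cell cannot be told apart.

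Aldh1a2, which encodes retinaldehyde dehydrogenase 2, was higher in APOE-KO and was the only member that passed the test. The gene (protein-coding, chromosome 9, 71215789 to 71296243, plus strand, GRCm38) has no annotated exon of another gene over its exons. Its level was 26.8, 16.5, 35.6, 70.4, 36.8 and 35.8 CPM in APOE-KO libraries 1 to 6, from 50 to 262 reads. In wildtype libraries 1 to 6 it was 5.31, 7.47, 19.6, 6.60, 6.68 and 16.2 CPM, from 10 to 112 reads. In 5 of 6 APOE-KO libraries it was above every wildtype library, and the exception, APOE-KO library 2, lay between wildtype libraries 6 and 3, so the groups overlapped. The means were 37.0 ± 18.1 CPM in APOE-KO and 10.3 ± 6.01 CPM in wildtype (SD, n = 6 each), a rise of 3.49-fold with a 95% interval of 2.15 to 5.65. The log2 fold change was 1.80 ± 0.34 (SE; adjusted p = 0.00380, edgeR's quasi-likelihood test), at rank 48 of 10714 genes tested. A two-sided exact permutation test on its log2 CPM alone gave p = 0.00433. Across all genes tested, 1.49% passed an adjusted p of 0.05, 1.08% as higher and 0.411% as lower in APOE-KO; of the 8 members tested, 1 passed as higher and none as lower. In every fit without 1 library Aldh1a2 passed, with log2 fold changes of 1.52 (without APOE-KO library 4) to 2.12 (without wildtype library 3).

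**Figure D1:**
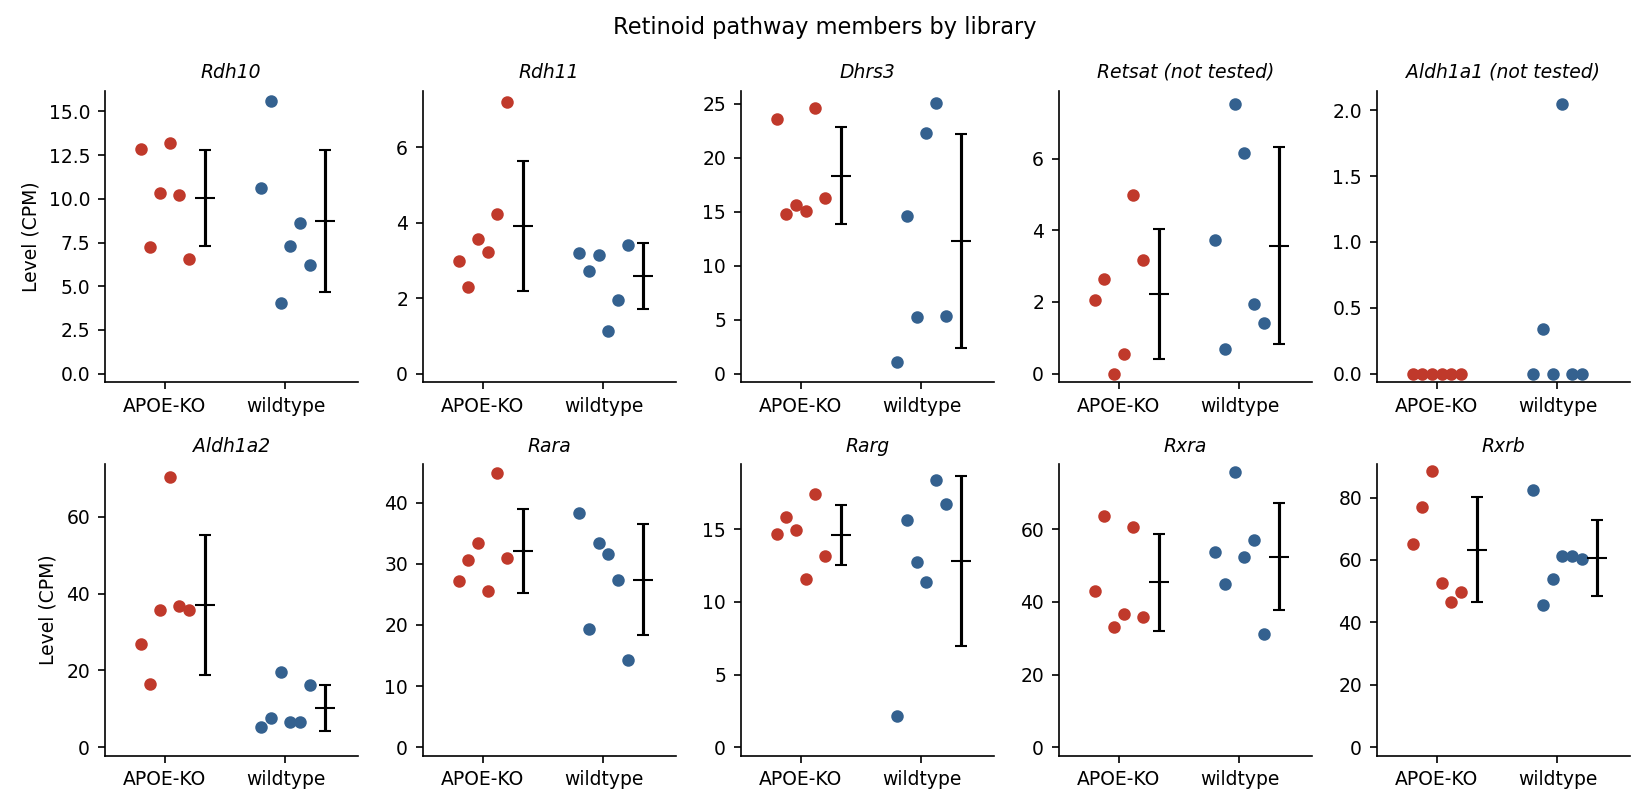
Level of each of the 10 genes in each library in CPM, with APOE-KO libraries in red on the left and wildtype libraries in blue on the right of each panel, replicates 1 to 6 from left to right. Horizontal ticks and bars give the mean and SD over 6 libraries (not drawn for Aldh1a1, at 0 in most libraries); the Aldh1a2 panel has 5 APOE-KO libraries above every wildtype library, and in the other panels the ranges of the genotypes overlap.

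Aldh1a1, which encodes retinaldehyde dehydrogenase 1 (chromosome 19, 20492715 to 20643465, plus strand), was nearly absent. It had 0 reads in all 6 APOE-KO libraries, where 3 counts in 1 library would stand for 0.636 to 1.07 CPM. In wildtype, library 4 had 9 reads (2.05 CPM), library 2 had 1 read, and the other 4 had none. It did not reach the count filter and was not tested with the other genes; a two-sided exact permutation test gave p = 0.455. Aldh1a3, which encodes another retinaldehyde dehydrogenase, had 26 reads over APOE-KO and 36 over wildtype and was not tested either. Reads of the 3 genes together were thus mostly those of Aldh1a2, with 846 Aldh1a2 reads against 26 of the other two in APOE-KO and 254 against 46 in wildtype. Within libraries, the log2 ratio of Aldh1a2 reads to Aldh1a1 plus Aldh1a3 reads (0.5 added to each) was 4.83 ± 1.26 in APOE-KO and 3.01 ± 1.92 in wildtype (SD, n = 6 each). That difference of 1.82 did not pass in a two-sided exact permutation test (p = 0.0844, adjusted p = 0.169 over 4 ratios). With 2 reads added in place of 0.5 it was 2.09 with an adjusted p of 0.0303 in the same exact test, so the call depends on how libraries with no reads in the denominator are treated.

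Aldh1a2 was set beside the markers of mature migratory dendritic cells, since these were also higher in APOE-KO. The summed level of their 15 genes ran from 6399.9 to 9733 CPM in APOE-KO and from 4754 to 6837 CPM in wildtype, with 5 of 6 APOE-KO libraries above all wildtype libraries. APOE-KO library 4 had the highest value of both Aldh1a2 and the marker sum, and APOE-KO library 2 had the lowest APOE-KO value of both. Ccr7, the chemokine receptor that guides these cells into nodes, had 1082 ± 147 CPM in APOE-KO and 699 ± 94.1 CPM in wildtype, a log2 fold change of 0.63 ± 0.12 (SE; adjusted p = 0.00444 in edgeR's quasi-likelihood test). Per 1000 marker reads, Aldh1a2 had 2.58 reads in the lowest, 3.97 in the median and 7.23 in the highest APOE-KO library. In wildtype the corresponding ratios were 1.05, 1.33 and 3.53, and wildtype libraries 3 and 6, at 3.53 and 3.39, were the ones within the APOE-KO range. This ratio, added after the data were seen, was 2.38-fold higher in APOE-KO, a log2 difference of 1.25 with a two-sided exact permutation p of 0.0152 that adjustment over 4 ratios raised to 0.0606. In a fit with the mean log2 level of the markers as a covariate, the log2 fold change of Aldh1a2 was 1.49 ± 0.94 (SE) and its adjusted p 0.776, while 3 of all genes passed in that fit against 160 without the covariate. That mean ran from 8.00 to 8.42 in APOE-KO and from 7.45 to 7.93 in wildtype, without overlap. The fit therefore cannot separate marker level from genotype, and the loss of the call decides nothing about the markers. Of 12 comparisons without 1 library, the ratio passed in 2, with an adjusted exact permutation p of 0.0260 without wildtype library 3 and 0.0433 without wildtype library 6. In the other 10 the adjusted exact permutation p was 0.0606 to 0.121, the highest without APOE-KO library 4.

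**Figure D2:**
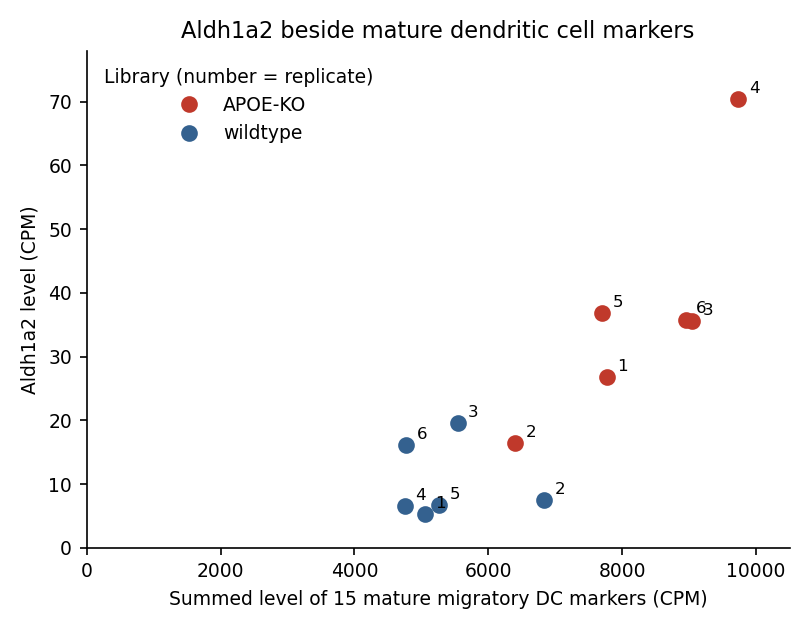
Aldh1a2 level (vertical axis, CPM) against the summed level of the 15 mature migratory dendritic cell markers (horizontal axis, CPM) in each library, APOE-KO in red and wildtype in blue, with the replicate number beside each point. APOE-KO library 4 lies highest on both axes, and APOE-KO library 2 and wildtype library 2 have marker sums of 6399.9 and 6837 CPM with Aldh1a2 levels of 16.5 and 7.47 CPM.

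Genes that act on retinol and retinaldehyde did not change detectably between the genotypes. Rdh10, whose enzyme carries out the oxidation of retinol to retinaldehyde (chromosome 1, 16105774 to 16133734, plus strand), had a lowest, median and highest level of 6.57, 10.3 and 13.2 CPM in APOE-KO and 4.02, 7.95 and 15.6 CPM in wildtype. The ranges lay over each other, and the log2 fold change was 0.22 ± 0.36 (SE), with a 95% interval of -0.52 to 0.96. Dhrs3 encodes the enzyme of the reverse reaction, which is itself induced by retinoic acid (chromosome 4, 144892827 to 144928209, plus strand). Its level was 23.6, 14.8, 15.7, 15, 24.6 and 16.3 CPM in APOE-KO libraries 1 to 6. In wildtype libraries 1 to 6 it was 1.06, 14.6, 5.25, 22.3, 25.0 and 5.39 CPM. Wildtype libraries 1, 3 and 6 were low and libraries 4 and 5 as high as the highest APOE-KO libraries, so wildtype covered the wider range, with an SD of 1.52 in log2 CPM against 0.33 in APOE-KO, a contrast that was not tested. The log2 fold change of Dhrs3 was 0.56 ± 0.42 (SE), with a 95% interval of -0.30 to 1.42 (adjusted p = 0.653). Without the 3 libraries that lay farthest out on principal components (APOE-KO library 5 and wildtype libraries 1 and 3) it was 0.02. These were the farthest library on each of components 1 to 3, taken without an outlier criterion, and are called outlying below in that sense only.

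Rdh11 encodes a reductase of retinaldehyde (chromosome 12, 79174337 to 79192293, minus strand). It stood at 2.31, 3.39 and 7.20 CPM (lowest, median, highest) in APOE-KO and 1.14, 2.93 and 3.40 CPM in wildtype, with 3 APOE-KO libraries above every wildtype library. With 93 reads over APOE-KO and 56 over wildtype, its log2 fold change of 0.61 had a wide 95% interval of -0.46 to 1.68. APOE-KO library 6 held 34 of those 93 reads. In fits without 1 library the log2 fold change of Rdh11 lay between 0.34, without APOE-KO library 6, and 0.72. Retsat encodes retinol saturase, which converts retinol to dihydroretinol (chromosome 6, 72598475 to 72608425, plus strand). It had 0 to 20 reads per APOE-KO library and 2 to 43 per wildtype library, was not tested with the other genes, and gave p = 0.366 in a two-sided exact permutation test. An exon of the predicted gene Gm45053 lies over it on the other strand, and the sources used here do not say whether counting used strand.

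The receptors were detected in every library and did not change detectably. Rara, which encodes RAR alpha (chromosome 11, 98927818 to 98974942, plus strand), had 25.5, 30.8 and 44.8 CPM (lowest, median, highest) in APOE-KO and 14.2, 29.4 and 38.2 CPM in wildtype, with a log2 fold change of 0.24 ± 0.23 (SE). Rarg, which encodes RAR gamma (chromosome 15, 102234938 to 102257517, minus strand), had 11.6 to 17.4 CPM in APOE-KO and 2.12 to 18.4 CPM in wildtype. Wildtype library 1 was low, at 4 reads, and the other 5 wildtype libraries had 11.4 to 18.4 CPM. The log2 fold change of Rarg was 0.16 ± 0.33 (SE), and -0.03 without wildtype library 1. Rarg and Dhrs3 both had their lowest level in wildtype library 1, the library with the fewest counts and with 32.2% of them in the 45S ribosomal RNA gene Rn45s. With an Rn45s covariate the log2 fold changes were 0.22 for Rarg and 0.69 for Dhrs3, neither passing. Without wildtype library 1 that of Dhrs3 was 0.35. The part of depth or Rn45s in the low values of that library was not tested beyond these fits. The reads per library of Rarg divided by those of Rara ran from 0.389 to 0.538 in APOE-KO and from 0.0556 to 1.18 in wildtype (two-sided exact permutation p = 0.909 for the log2 ratio, adjusted p = 0.909).

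Rxra encodes RXR alpha, the partner of RARs and of LXR, PPAR and vitamin D receptors (chromosome 2, 27676440 to 27762957, plus strand). Its level was 33.1, 39.8 and 63.6 CPM (lowest, median, highest) in APOE-KO and 31.2, 53.0 and 75.7 CPM in wildtype. It was the only tested member with a negative log2 fold change, -0.21 ± 0.21 (SE), with a 95% interval of -0.64 to 0.22. Rxrb, which encodes RXR beta (chromosome 17, 34031812 to 34038399, plus strand), had 46.5, 59.0 and 88.6 CPM in APOE-KO and 45.5, 60.8 and 82.3 CPM in wildtype. Its log2 fold change was 0.06 ± 0.18 (SE), and its 95% interval of -0.31 to 0.43 was the narrowest of the 8. Rxrb reads per Rxra read ranged from 0.766 to 2.68 in APOE-KO and from 0.714 to 1.94 in wildtype, and the log2 ratios did not differ detectably (two-sided exact permutation p = 0.444, adjusted p = 0.592). Adjusted p-values of the 7 tested members other than Aldh1a2 lay between 0.653 and 0.944 in edgeR's quasi-likelihood test. Over the 8 tested members the median log2 fold change was 0.23, and 7 were positive. Over all 10714 genes the median was -0.02, and 47.2% were positive. The median absolute log2 fold change was 0.23 over the tested members and 0.21 over all genes tested. Aldh1a1 and Retsat, which the count filter left out, had fewer reads in APOE-KO than in wildtype (0 against 10 and 54 against 91).

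**Figure D3:**
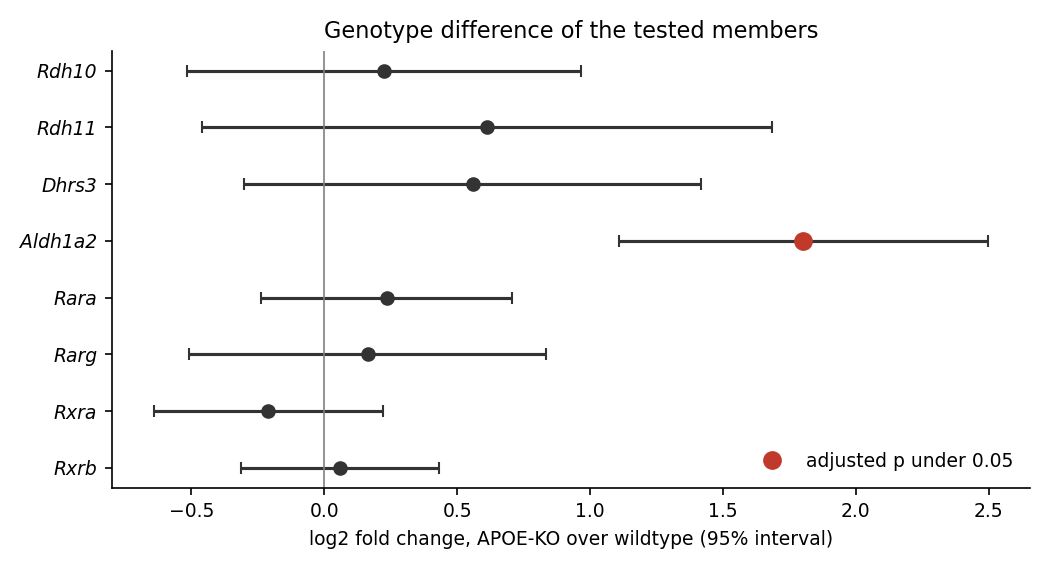
Log2 fold change of the 8 tested members, APOE-KO over wildtype (horizontal axis), with 95% intervals from edgeR's quasi-likelihood fit over 12 libraries; the red point passed an adjusted p of 0.05. The interval of Aldh1a2, 1.11 to 2.50, lies above 0, and the other 7 intervals include 0.

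Beyond the members, 8 lists of retinoid genes were read from the same fit, 120 genes in all without the members, of which 64 were tested. In APOE-KO 3 of these 64 rose in the fit over all 12 libraries, Fabp5, Nr1h3 and Cd274, and none fell. Across all genes tested 1.08% rose and 0.411% fell. Of the 64 log2 fold changes 25 were positive, against 47.2% over all genes tested. These lists were drawn up with earlier results of these data known. Fabp5 encodes a fatty acid binding protein that also carries retinoic acid (chromosome 3, 10012548 to 10016607, plus strand). It had 102, 121 and 151 CPM (lowest, median, highest) in APOE-KO and 34.5, 52.0 and 74.2 CPM in wildtype, without overlap, as was the case for 1.77% of all genes tested. Its log2 fold change was 1.20 ± 0.17 (SE; adjusted p = 0.000246 in edgeR's quasi-likelihood test). Nr1h3, which encodes LXR alpha, a partner of RXR (chromosome 2, 91184061 to 91202834, minus strand), had 62.0, 66.3 and 128 CPM in APOE-KO and 18.6, 35.6 and 55.1 CPM in wildtype, again without overlap (log2 fold change 1.01 ± 0.22 SE, adjusted p = 0.0160 in the same test). Cd274, which encodes PD-L1 (chromosome 19, 29367455 to 29388095, plus strand), had 42.4, 66.3 and 95.4 CPM in APOE-KO and 24.0, 35.5 and 50.2 CPM in wildtype (0.88 ± 0.20, adjusted p = 0.0213 in the same test), with groups that overlapped. Exons of Gm13783 on the same strand overlap Nr1h3, and exons of AC119228.1 on the other strand overlap Cd274, so their reads may be shared. Without the 3 outlying libraries named above the log2 fold change of Nr1h3 was 0.64 and its adjusted p 0.0592. Of the mature dendritic cell markers 8 of 14 also rose in APOE-KO, with the sums given above, and their part in these results was not tested. A fit with their mean as a covariate cannot separate it from genotype, because that mean did not overlap between the genotypes. In that fit none of the 3 passed, at log2 fold changes of 0.78 ± 0.42 (SE) for Fabp5, 1.55 ± 0.53 for Nr1h3 and 0.19 ± 0.43 for Cd274. Their adjusted p-values there were 0.735, 0.701 and 0.951 in edgeR's quasi-likelihood test. With the epithelial marker mean as a covariate Fabp5 alone passed (1.32, adjusted p = 0.0180 in the same test). The epithelial sums of the genotypes overlapped only through APOE-KO library 4, so that fit separates epithelial marker level from genotype poorly. Cd274 passed in 8 of 12 fits without 1 library and not when APOE-KO library 4 or 6, or wildtype library 5 or 6, was left out (adjusted p up to 0.0788).

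Genes that respond to retinoic acid did not pass in either direction in the fit over all 12 libraries. Of 21 listed targets, 10 were tested, Dhrs3 among them, 3 had a positive log2 fold change, and the median was -0.08. Ccr9, the gut-homing chemokine receptor that retinoic acid induces on T cells and that plasmacytoid dendritic cells also carry, had 54.1 ± 13.0 CPM in APOE-KO and 86.9 ± 28.3 CPM in wildtype (log2 fold change -0.67, adjusted p = 0.110 in edgeR's quasi-likelihood test). It passed as lower in APOE-KO without the 3 outlying libraries (-0.73, adjusted p = 0.0317) and without wildtype library 3 alone (adjusted p = 0.0256), and in none of the other 11 fits without 1 library. Beside it, the summed markers of plasmacytoid cells, which include Ccr9, ran from 1176 to 1549 CPM in APOE-KO and from 1481 to 3183 CPM in wildtype; all 10 were detected, and their part in the Ccr9 values was not tested. Cd38, a surface enzyme induced by retinoic acid in myeloid cells, had 59.4 ± 12.8 CPM in APOE-KO and 40.9 ± 6.91 CPM in wildtype (adjusted p = 0.159). The transglutaminase gene Tgm2 had 61.1 ± 12.1 CPM in APOE-KO and 62.7 ± 13.8 CPM in wildtype. Rarb, the receptor gene most directly induced by retinoic acid, had 21 reads over APOE-KO and 28 over wildtype and was not tested.

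Breakdown of retinoic acid is carried out by the CYP26 enzymes, of which 1 had enough reads. Cyp26b1 had 4.94, 6.29 and 9.95 CPM (lowest, median, highest) in APOE-KO and 2.83, 6.23 and 13.9 CPM in wildtype, with a log2 fold change of -0.05 and a 95% interval of -0.96 to 0.86. Cyp26a1 had 0 reads over APOE-KO and 10 over wildtype, and Cyp26c1 had none. Of 29 other retinoid enzymes 7 were tested and none passed, the smallest p being that of Dhrs7, a short-chain dehydrogenase, with 28.4 ± 7.33 CPM in APOE-KO and 41.6 ± 6.83 CPM in wildtype (adjusted p = 0.219), without overlap. Next was Rdh13, at 5.03 ± 2.44 CPM in APOE-KO and 2.76 ± 1.63 CPM in wildtype (adjusted p = 0.568). Of 16 transport and binding genes 5 were tested; besides Fabp5, the smallest p was that of the scavenger receptor gene Lrp1, with 45.4 ± 11.8 CPM in APOE-KO and 32.7 ± 6.95 CPM in wildtype (adjusted p = 0.321). In each of these comparisons n was 6 libraries per genotype and the p-value came from edgeR's quasi-likelihood test.

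**Figure D4:**
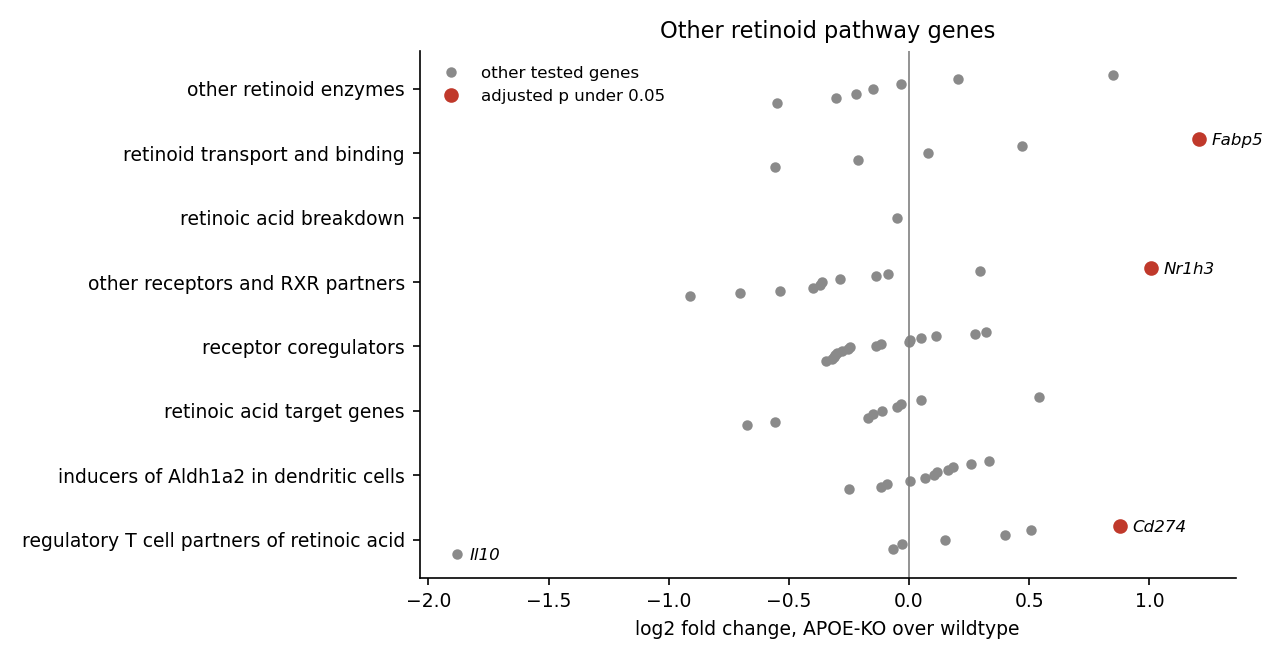
Log2 fold change, APOE-KO over wildtype (horizontal axis), of the tested genes of each of the 8 retinoid lists with the members left out; a gene on 2 lists is drawn in each. Red points passed an adjusted p of 0.05 and are the 3 genes that rose, Fabp5, Nr1h3 and Cd274; Il10, at -1.88, did not pass.

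Signals known to switch on Aldh1a2 in dendritic cells, such as GM-CSF, interleukin 4 and Toll-like receptor 2 ligands, were followed through their receptors and transcription factors. Of 13 such genes 11 were tested and none passed, with 8 positive and a median log2 fold change of 0.10. Csf2rb, the shared beta chain of the GM-CSF receptor, had 433 ± 40.1 CPM in APOE-KO and 344 ± 17.0 CPM in wildtype (log2 fold change 0.33 ± 0.11 SE, adjusted p = 0.159 in edgeR's quasi-likelihood test). The prostaglandin receptor gene Ptger4 had 122 ± 15.5 CPM in APOE-KO and 102 ± 18.3 CPM in wildtype (adjusted p = 0.486). Irf4, a transcription factor of migratory dendritic cells, had 76.6 ± 17.2 CPM in APOE-KO and 81.7 ± 11.9 CPM in wildtype (adjusted p = 0.891). Among 12 genes that act with retinoic acid on regulatory T cells 7 were tested, and only Cd274 passed. Il10, an anti-inflammatory cytokine gene, had 1.88 ± 1.82 CPM in APOE-KO and 6.88 ± 2.06 CPM in wildtype (adjusted p = 0.134). Itgae, which encodes the CD103 chain carried by retinoic acid producing dendritic cells of the gut, had 14.3 ± 4.52 CPM in APOE-KO and 15.2 ± 3.74 CPM in wildtype (adjusted p = 0.965). Tgfb1 had 11.8 ± 7.11 CPM in APOE-KO and 12.1 ± 2.79 CPM in wildtype (adjusted p = 0.989).

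Receptors other than the members and partners of RXR passed in 1 of 11 tested genes, Nr1h3, and 9 of the 11 were negative with a median log2 fold change of -0.36. The orphan receptor gene Nr4a2 had 517 ± 47.2 CPM in APOE-KO and 669 ± 154 CPM in wildtype (log2 fold change -0.37, adjusted p = 0.230 in edgeR's quasi-likelihood test). Without the 3 outlying libraries Nr4a2 passed as lower in APOE-KO (-0.49, adjusted p = 0.0239), as it did without wildtype library 3 alone (adjusted p = 0.0290), and in none of the other 11 such fits. None of 16 tested coregulators passed, and 11 were negative. Ncor1, the corepressor bound by RARs without ligand, had 373 ± 44.3 CPM in APOE-KO and 462 ± 52.1 CPM in wildtype (adjusted p = 0.249), and the coactivator gene Crebbp 185 ± 42.5 CPM in APOE-KO and 236 ± 63.3 CPM in wildtype (adjusted p = 0.453).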

How the data were processed

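The authors deposited raw counts, a whole number of reads for each gene symbol and library, made with the Lexogen 3′ FWD kit. Tools in the submitters' processing notes are featureCounts 1.5.1 and STAR 2.7.8a, on mm10, besides DESeq2 1.4 and R 4.1.0; annotation, strand setting and the handling of multiply matching reads are not stated there. Columns were matched to samples by their descriptions, and none was left over.

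The fit used edgeR 4.0.16 under R 4.3.3. There, filterByExpr (minimum count 10 in about 6 libraries, total 15) kept 10714 genes, TMM factors scaled the 12 libraries, and glmQLFTest compared genotypes, with Benjamini-Hochberg adjustment over all genes and a threshold of 0.05. The test was checked on simulated counts. CPM use the scaled library sizes; the SE is the log2 fold change divided by the root of F. Single genes (log2 CPM, prior count 2) and ratios of reads were compared by two-sided exact permutation over 924 assignments, whose smallest p is 0.00216. At these depths 3 counts in 1 library stand for 0.525 to 1.59 CPM, a floor that covers counting error only. Positions are GENCODE vM21 (GRCm38, the assembly of mm10).

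Members, lists and marker lists were chosen with earlier results of these data known. Named genes are the members, the genes of each retinoid list that passed or had the 2 smallest p, marker genes that passed, and the 5 genes most like Aldh1a2. Tgm2, Rarb, Cyp26a1, Cyp26c1, Aldh1a3, Irf4, Itgae and Tgfb1 were named outside that rule, after their values were seen. Alternatives were RLE and upper quartile factors, no filter and a stricter filter (30 counts in 6 libraries), DESeq2 1.42.0, limma-voom (limma 3.58.1), robust dispersion, a replicate block, covariates, and leaving out libraries.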

Additional observations from a re-analysis of the deposited data

Results flagged for a closer look

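Of 26 sets of 6 libraries examined for a library far from the others, 1 stood out. Chance alone would mark about 1 in 20 sets of normally distributed values. That rate does not hold for a gene with 0 reads in most libraries, as in the set marked here. Aldh1a1 in APOE-KO, at 0 reads in every library, could not be marked. Aldh1a1 in wildtype library 4, at 2.05 CPM from 9 reads, was separated from the next library by a gap of 0.834 of the group's range; 4 of the other wildtype libraries had no read of it.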

How the results depend on the processing

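The rise of Aldh1a2 kept its direction in 24 of 24 alternatives and its call in 23. Its log2 fold change was 2.42 (adjusted p = 0.00799 in edgeR's quasi-likelihood test) with the epithelial marker mean as a covariate. The epithelial sums ran from 8.69 to 95.7 CPM in APOE-KO and from 83.9 to 143.8 CPM in wildtype. Only APOE-KO library 4, which also had the highest Aldh1a2 level (70.4 CPM), reached the wildtype range. That fit therefore separates epithelial marker level from genotype poorly. The log2 fold change of Aldh1a2 was 2.01 (adjusted p = 0.00112 in the same test) without the 3 outlying libraries, a setting chosen after seeing the data. With the mature dendritic cell marker covariate it was 1.49, no longer passing. The counts of members, other retinoid genes and all genes that passed were then 0, 0 and 3, against 1, 3 and 160. This covariate did not overlap between the genotypes (8.00 to 8.42 in APOE-KO, 7.45 to 7.93 in wildtype), so that fit cannot separate it from genotype. The part of the markers in these results was not tested. All genes that passed numbered 274 with DESeq2, 323 with an Rn45s covariate, 37 with the epithelial covariate and 100 with the replicate block, and 99 (without APOE-KO library 3) to 230 in fits without 1 library. Other retinoid genes that passed numbered 5, 6 and 1 with DESeq2, the Rn45s covariate and the epithelial covariate, and 2 to 5 (5 without wildtype library 3). Same-numbered libraries showed no shared deviation (r from -0.08 to 0.02), which does not exclude that they were handled together. The labels do not say whether the numbers pair them. With the replicate block Aldh1a2 still passed (log2 fold change 1.85, adjusted p = 0.00888). The directions of Rxrb (-0.0170 with the Rn45s covariate), Rdh10 (-1.13) and Rxra (0.62, both with the mature dendritic cell marker covariate) and Rarg (-0.15 without the outlying libraries) turned, none passing. Without 1 library Rarg lay between -0.0339 and 0.29 and Rxrb between -0.0568 and 0.16. The log2 ratio of Rarg to Rara differed by -0.42 to 0.43 without 1 library. The ratio of Aldh1a2 to Aldh1a1 plus Aldh1a3 (2.09) and that to the mature markers (1.19) passed with 2 reads added, each with an adjusted p of 0.0303 by exact permutation; without 1 library the marker ratio differed by 1.09 to 1.46 and the enzyme ratio by 1.35 to 2.34. Depth limits Aldh1a1, Retsat and Rdh11 most.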

Other observations

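Over the 12 libraries, with each genotype's mean removed, the genes whose log2 CPM varied most like Aldh1a2 among 9417 genes of at least 5 CPM were Noxo1, Skap2, Trim25, Anxa4 and Ebna1bp2, with Pearson r of 0.844, 0.838, 0.835, 0.829 and 0.822, the highest of many and given as a description. Of these Anxa4, an annexin, passed between genotypes, at 107 CPM in APOE-KO and 65.8 CPM in wildtype (log2 fold change 0.69, adjusted p = 0.0281 in edgeR's quasi-likelihood test, n = 6 each). Of 3 mature dendritic cell markers looked up, Ccr7 stood at rank 70 (r of 0.723), Fscn1 at rank 734 (r of 0.510) and Ccl22 at rank 5434 (r of -0.06). The best-placed other member of at least 5 CPM, Rarg, stood at rank 2636 (r of 0.246).

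Several retinoid genes under the count filter had uneven reads, chosen after their values were seen. Rbp7, which encodes a retinol binding protein, had 4 reads over APOE-KO, in 2 libraries, and 47 over wildtype, in 4 libraries (two-sided exact permutation p = 0.0606). Ptger2, a prostaglandin E2 receptor gene, had 42 reads over APOE-KO and 109 over wildtype (two-sided exact permutation p = 0.0260). Stra6, which encodes a retinol uptake receptor, had 29 reads over APOE-KO and 9 over wildtype (two-sided exact permutation p = 0.0801). These p-values are not adjusted for the choice of genes.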
